A study of Mus musculus with 20 samples.

Results

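The mitochondrial genome of the mouse carries 37 annotated genes, and all 37 stood in the deposited gene table of fasted livers, out of 56748 genes in all. They were taken as every row on the chromosome named MT: 13 mRNAs, 2 rRNAs and 22 tRNAs. Libraries came from livers of mice fasted for 24 h, with 4 libraries in each of 5 groups. Cpt1DKO livers lacked Cpt1a and Cpt1b, Cpt2KO livers lacked Cpt2, TKO livers lacked all of these, and Cpt2PparaDKO livers lacked Cpt2 and Ppara, in each case through a liver-specific knockout per the labels. Control mice carried floxed Cpt1a, Cpt1b and Cpt2 alleles and were littermates per the study's design text. The labels do not name the mutant group or groups whose littermates they were. The labels name no Cre driver, strain, maternal line, age or sex, and they give no floxed Ppara allele for Control. Whether each library stood for 1 animal is not stated, so the p-values rest on library-to-library spread, part of which may be technical.

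CPT1 and CPT2 act in the carnitine shuttle, by which long-chain fatty acids enter mitochondria to be oxidised, and Ppara encodes PPARalpha, a nuclear receptor that turns on fat-burning genes in fasting. Electrons from that oxidation enter the respiratory chain, whose core subunits are encoded by the circular mitochondrial DNA. This DNA is transcribed from both strands into long precursors that are cut at the tRNAs lying between most mRNAs and rRNAs. The heavy-strand precursor gives nearly all mRNAs and both rRNAs, and the light-strand precursor gives mt-Nd6 and a minority of the tRNAs. Mitochondrial DNA is inherited from the mother only, and inbred mouse strains are known to differ from one another at a few of its bases, including the length of a run of A in mt-Tr.

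Libraries held between 14129595 and 36452673 counted reads, and Cpt2PparaDKO replicate 1 was the deepest. Over the whole gene, Cpt1a averaged 155 ± 12.2 CPM in Cpt1DKO and 137 ± 12.7 CPM in TKO, against 1040 ± 76.6 CPM in Control (SD, n = 4 each, CPM being counts scaled to a common library size by TMM factors). Cpt2 averaged 131 ± 23.6 CPM in Cpt2KO, 103 ± 11.7 CPM in TKO and 33.9 ± 4.86 CPM in Cpt2PparaDKO, against 249 ± 26.2 CPM in Control. Ppara averaged 73.2 ± 13 CPM in Cpt2PparaDKO, against 233 ± 46.1 CPM in Control. Cpt1b averaged 0.881 ± 0.217 CPM in Cpt1DKO and 2.8 ± 0.308 CPM in TKO, against 0.543 ± 0.215 CPM in Control, so whole-gene counts give no check of its deletion. The summed level of 6 hepatocyte markers (Alb, Ttr, Apoa1, Apob, Cps1 and Hnf4a) ran from 78000 to 86200 CPM in Cpt1DKO, 47400 to 74900 CPM in Cpt2KO, 39100 to 69500 CPM in TKO and 34900 to 40100 CPM in Cpt2PparaDKO, against 81600 to 102000 CPM in Control. Alb dominated the hepatocyte sums (49400 ± 2100 CPM in Cpt1DKO and 33200 ± 11100 CPM in Cpt2KO, against 62800 ± 6370 CPM in Control). Apoa1 averaged higher than Control in Cpt1DKO and Cpt2KO, and Cps1 and Hnf4a higher in Cpt1DKO. In TKO and Cpt2PparaDKO all 6 averaged lower than Control. Of the markers of 6 other cell types none was at 0 in a whole group, and the summed levels that stood clear of Control were those of stellate cells and cholangiocytes. Stellate markers ran from 226 to 278 CPM in Cpt1DKO, 235 to 328 CPM in Cpt2KO and 236 to 276 CPM in Cpt2PparaDKO, against 175 to 208 CPM in Control. Cholangiocyte markers ran from 18.7 to 26.5 CPM in Cpt1DKO, 7.61 to 15.1 CPM in Cpt2KO and 10.8 to 20.5 CPM in TKO, against 29.7 to 35.5 CPM in Control. These sums rested largely on Dcn (185 ± 30.1 CPM in Cpt2KO, against 124 ± 11.4 CPM in Control) and Spp1 (13.3 ± 6.49 CPM in Cpt1DKO, against 23.8 ± 2.53 CPM). Other markers went the other way: Des, Col1a1 and Col3a1 averaged lower in Cpt2KO than in Control, and Krt7, Krt19 and Epcam higher in Cpt1DKO. The part of other cell types was not tested. In 2 of the 20 libraries, Cpt2KO replicate 3 and Cpt2PparaDKO replicate 4, Xist exceeded 100 CPM. In such bulk tissue, fewer cells of a type and less RNA per cell cannot be told apart.

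The results turned on 2 tRNA genes, mt-Tg for glycine and mt-Tr for arginine, and on the start of mt-Nd3, the gene between them. Each is printed in DNA letters from the GENCODE M21 transcript of the same gene ID, whose length equalled that in the count table for 37 of 37 genes. Capitals mark the anticodon in the tRNAs, and in the other pair they mark the base at which mt-Nd3 differs from Gm28438, its copy on chromosome 1.
mt-Tg: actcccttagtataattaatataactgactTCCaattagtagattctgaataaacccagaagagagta
mt-Tr: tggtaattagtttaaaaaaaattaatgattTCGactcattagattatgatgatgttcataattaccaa
mt-Nd3, first bases: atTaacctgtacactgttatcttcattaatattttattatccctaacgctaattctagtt
Gm28438, first bases: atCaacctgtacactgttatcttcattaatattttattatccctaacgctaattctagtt
In the count table's build, GRCm39, mt-Tg lies at MT:9391-9458, mt-Nd3 at MT:9459-9806 and mt-Tr at MT:9808-9875, all on the plus strand, and both tRNAs are 68 bases long. The longest run of A in the mt-Tr sequence is 8 bases.

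Of the 37 genes, 29 had enough counts to be tested: all 13 mRNAs, both rRNAs and 14 of the 22 tRNAs. The 8 tRNAs that were not tested were mt-Tf, mt-Tv, mt-Tq, mt-Ta, mt-Ts1, mt-Td, mt-Tk and mt-Tt. Their counts reached at most 19 in any library, and mt-Tf had 0 counts in all 20, which allows up to 3 reads in each. No count, median or share over the 29 tested genes stands for all 37. Mature tRNAs are short and are mostly lost in standard mRNA libraries, and whether the reads on tRNA genes came from tRNAs or from longer precursors was not tested.

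The mRNAs differed widely in level, and their order was nearly the same in every library. On the length-normalised FPKM scale, mt-Co1, the catalytic subunit of complex IV, had a median of 12800 over the 20 libraries and ranked first in all of them. mt-Cytb, the cytochrome b of complex III, followed at 8140 FPKM. The complex I subunits mt-Nd2 and mt-Nd1 had medians of 6450 and 6200 FPKM, and these 3 genes shared ranks 2 to 4 in varying order. mt-Nd4, mt-Nd5 and mt-Nd6, also of complex I, had medians of 3330, 2940 and 2790 FPKM and held ranks 5 to 7 in varying order. A wide step separated these 7 mRNAs from the other 6. Median levels were 302 FPKM for mt-Atp6 of the ATP synthase, 293 FPKM for mt-Co2 and 222 FPKM for mt-Co3 of complex IV, 111 FPKM for mt-Nd4l and 90.7 FPKM for mt-Nd3 of complex I, and 3.2 FPKM for mt-Atp8 of the ATP synthase, which ranked 13th in every library.

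**Figure D1:**
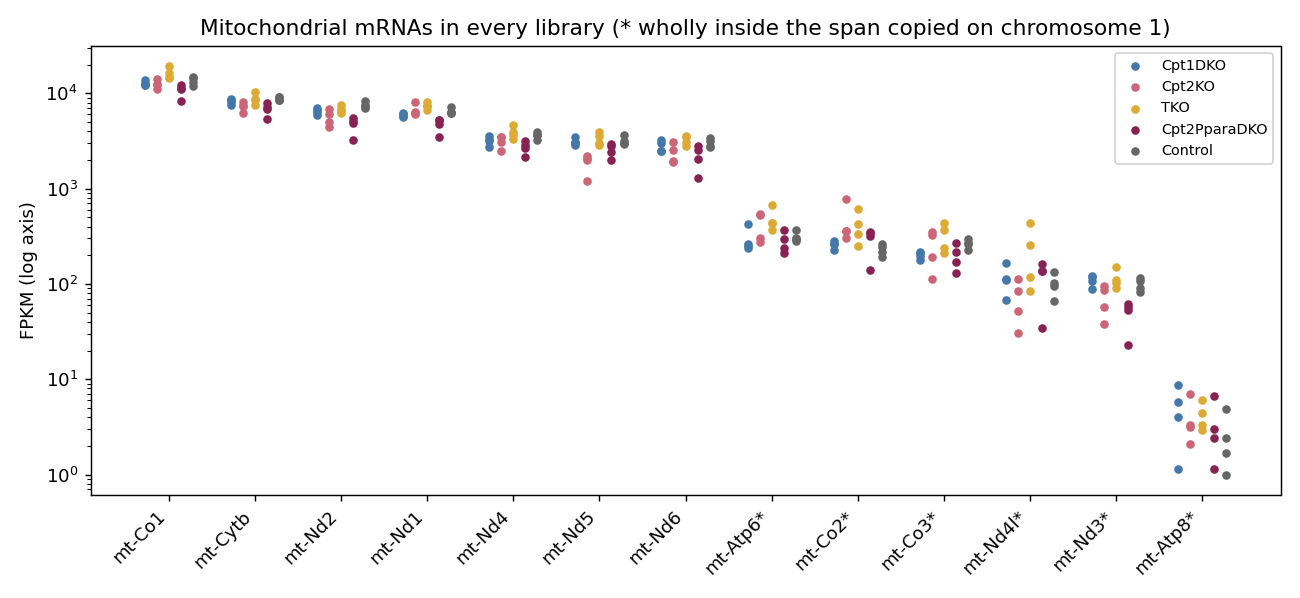
FPKM of the 13 mitochondrial mRNAs (log axis) in each of the 20 libraries, by group; each point is 1 library and a star marks genes that lie wholly inside the span copied on chromosome 1. The 7 unstarred genes have medians of 2790 to 12800 FPKM and the 6 starred genes medians of 3.2 to 302 FPKM.

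The 6 low mRNAs were those lying wholly inside a stretch of mitochondrial DNA that also stands in the nuclear genome. A block on the minus strand of chromosome 1, from 24650616 to 24655278, holds 7 unprocessed pseudogenes that match mitochondrial bases 6390 to 11042. Their transcripts matched those of mt-Co1, mt-Co2, mt-Atp6, mt-Co3, mt-Nd3, mt-Nd4l and mt-Nd4 at 99% identity or more, and 5 of the 7 were identical over the matched stretch. Between mt-Nd3 and Gm28438, 345 bases were compared and the only difference was T3C (mitochondrial base first, position counted from 1 at the gene's first base, then the copy's base). Between mt-Co1 and Gm29216, 483 bases were compared and the only difference was A1066T, counted in the same way. Reads within an identical stretch carry no base that tells the 2 places apart, and the authors' rule for such reads was not given in the sources used here.

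Counts were split between gene and copy in a way that differed among the pairs. Of the summed counts of gene and copy, the copy took 26.1 to 58.4% for mt-Co2 (Gm28661), 36.9 to 57.8% for mt-Atp6 (Gm10925), 32.9 to 48.6% for mt-Co3 (Gm28437) and 26.9 to 64.1% for mt-Nd4l (Gm10222) over the 20 libraries. The share was far lower where the gene runs on outside the copied span, at 0.399 to 1.39% for mt-Co1 (Gm29216) and 1.21 to 2.95% for mt-Nd4 (Gm28439). For these 6 pairs the ranges of the groups overlapped Control.
The pair of mt-Nd3 and Gm28438 was the exception, chosen after its values were seen. Gm28438 took 46.7, 49.2, 52.9 and 62.5% of the pair's counts in Cpt2KO and 63.8, 62.9, 62.8 and 60.1% in Cpt2PparaDKO, against 26.2, 31.8, 24.2 and 29.6% in Control. All 8 libraries of these mutant groups lay above all 4 Control libraries. Cpt1DKO had 41.8, 20.5, 22.2 and 23.2% and TKO had 27.3, 31.7, 24.7 and 21.6%, and both groups overlapped Control.

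**Figure D2:**
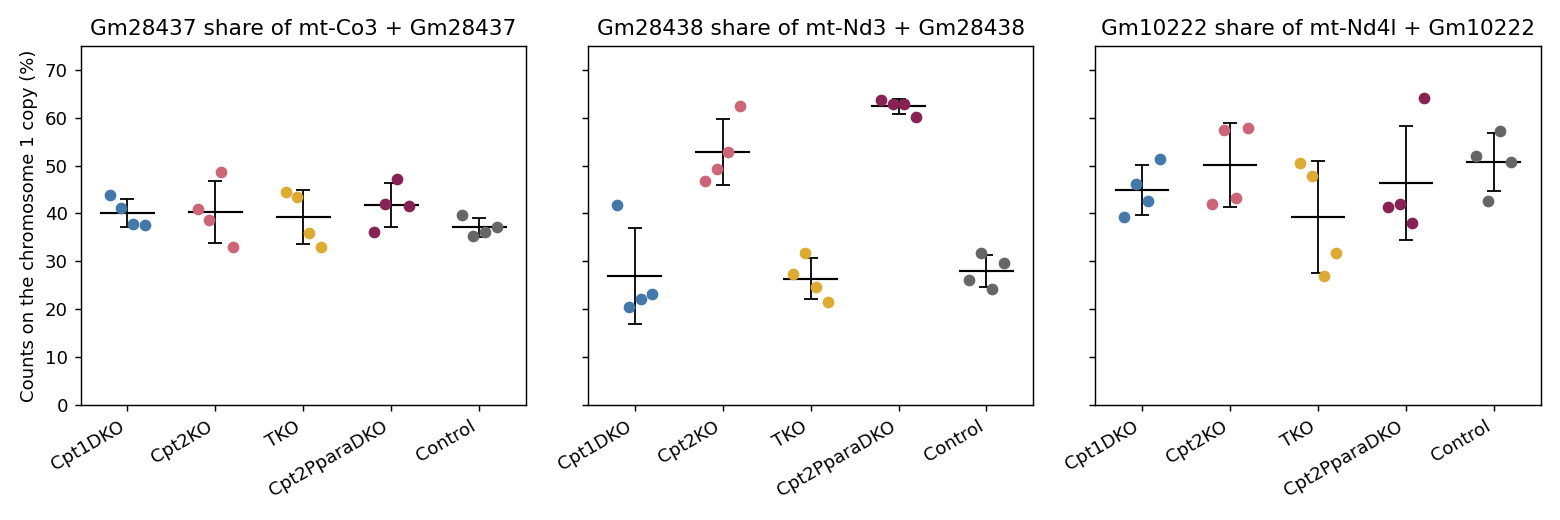
Counts on the chromosome 1 copy as a percentage of gene plus copy, for mt-Co3, mt-Nd3 and mt-Nd4l, which follow each other on the mitochondrial genome; points are libraries, bars the mean ± SD (n = 4 per group). Shares of Gm28438 average 52.8% in Cpt2KO and 62.4% in Cpt2PparaDKO, against 28.0% in Control, while the groups overlap in the flanking pairs.

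The mitochondrial genome as a whole took a similar share of counts in most groups. The share was 5.14 ± 0.407% for Cpt1DKO, 5.13 ± 0.641% for Cpt2KO, 6.68 ± 0.996% for TKO and 5.4 ± 0.742% for Cpt2PparaDKO livers, against 5.23 ± 0.551% in Control (SD, n = 4 each). TKO replicate 3 was the highest of the 20 libraries at 8.02%, and without it TKO averaged 6.23%. After TMM scaling, which corrects for the composition of the rest of the library, the summed level was 55000 ± 2360 CPM in Cpt1DKO, 51300 ± 5730 CPM in Cpt2KO, 65100 ± 7400 CPM in TKO and 45000 ± 7760 CPM in Cpt2PparaDKO, against 60400 ± 3890 CPM in Control. Cpt2PparaDKO thus lay close to Control by share and below it by scaled level, so a direction for the whole genome in that group depends on the scaling. These sums are descriptions without a test. Of the nuclear-retained RNAs, Neat1 averaged 833 ± 285 CPM in Cpt1DKO, 1370 ± 625 CPM in Cpt2KO, 1820 ± 482 CPM in TKO and 920 ± 208 CPM in Cpt2PparaDKO, against 314 ± 74.4 CPM in Control, and it was called higher in all 4. Malat1 averaged 704 ± 273 CPM in TKO, against 775 ± 212 CPM in Control, and was called in Cpt2PparaDKO, where it was lower (448 ± 40.7 CPM). That call held in 5 of 18 alternatives. The part of both RNAs in the mitochondrial share was not tested.

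**Figure D3:**
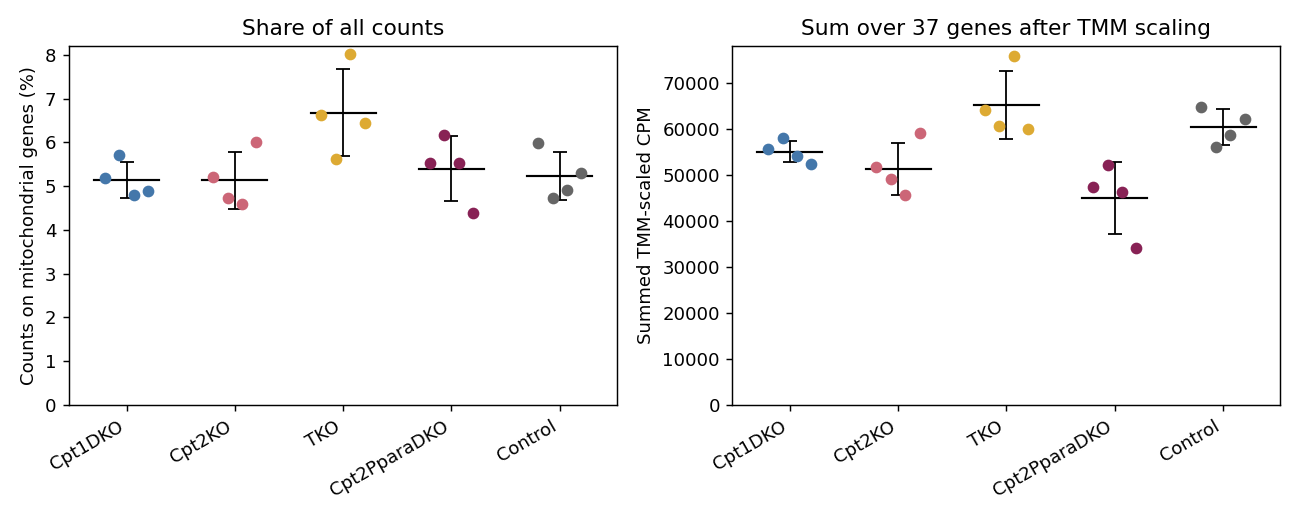
Share of counts on the 37 mitochondrial genes (left, %) and their summed TMM-scaled level (right, CPM) per library, with the mean ± SD (n = 4 per group). Cpt2PparaDKO averages 5.4% against 5.23% in Control on the left, and 45000 against 60400 CPM on the right.

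Against Control, mitochondrial genes were called in Cpt2KO and Cpt2PparaDKO livers and not in Cpt1DKO or TKO livers. The threshold was 0.05 on the adjusted p of edgeR's quasi-likelihood test over all 15669 tested genes, and the comparisons share the Control libraries. In Cpt1DKO 0 of 29 mitochondrial genes were called, where 5.55% of all tested genes were, with 2 at an unadjusted p under 0.05. DESeq2 called 0 of the 29 there and 1443 of all 15669 genes. In Cpt2KO 9 were called, 2 higher and 7 lower, where 33.4% of all tested genes were. In TKO 0 were called, where 27.4% of all tested genes were, with 4 at an unadjusted p under 0.05. DESeq2 called 2 of the 29 there and 4673 of all 15669 genes. The share of all genes at an unadjusted p under 0.05 was not counted in any comparison. In Cpt2PparaDKO 9 were called, all lower, where 32.5% of all tested genes were. The 9 calls amount to 31% of the 29 genes, near the background in both groups. Median log2 fold changes over the 29 genes were -0.12 for Cpt1DKO, -0.30 for Cpt2KO, 0.12 for TKO and -0.47 for Cpt2PparaDKO, and that of all tested genes lay within 0.01 of 0 in each.

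**Figure D4:**
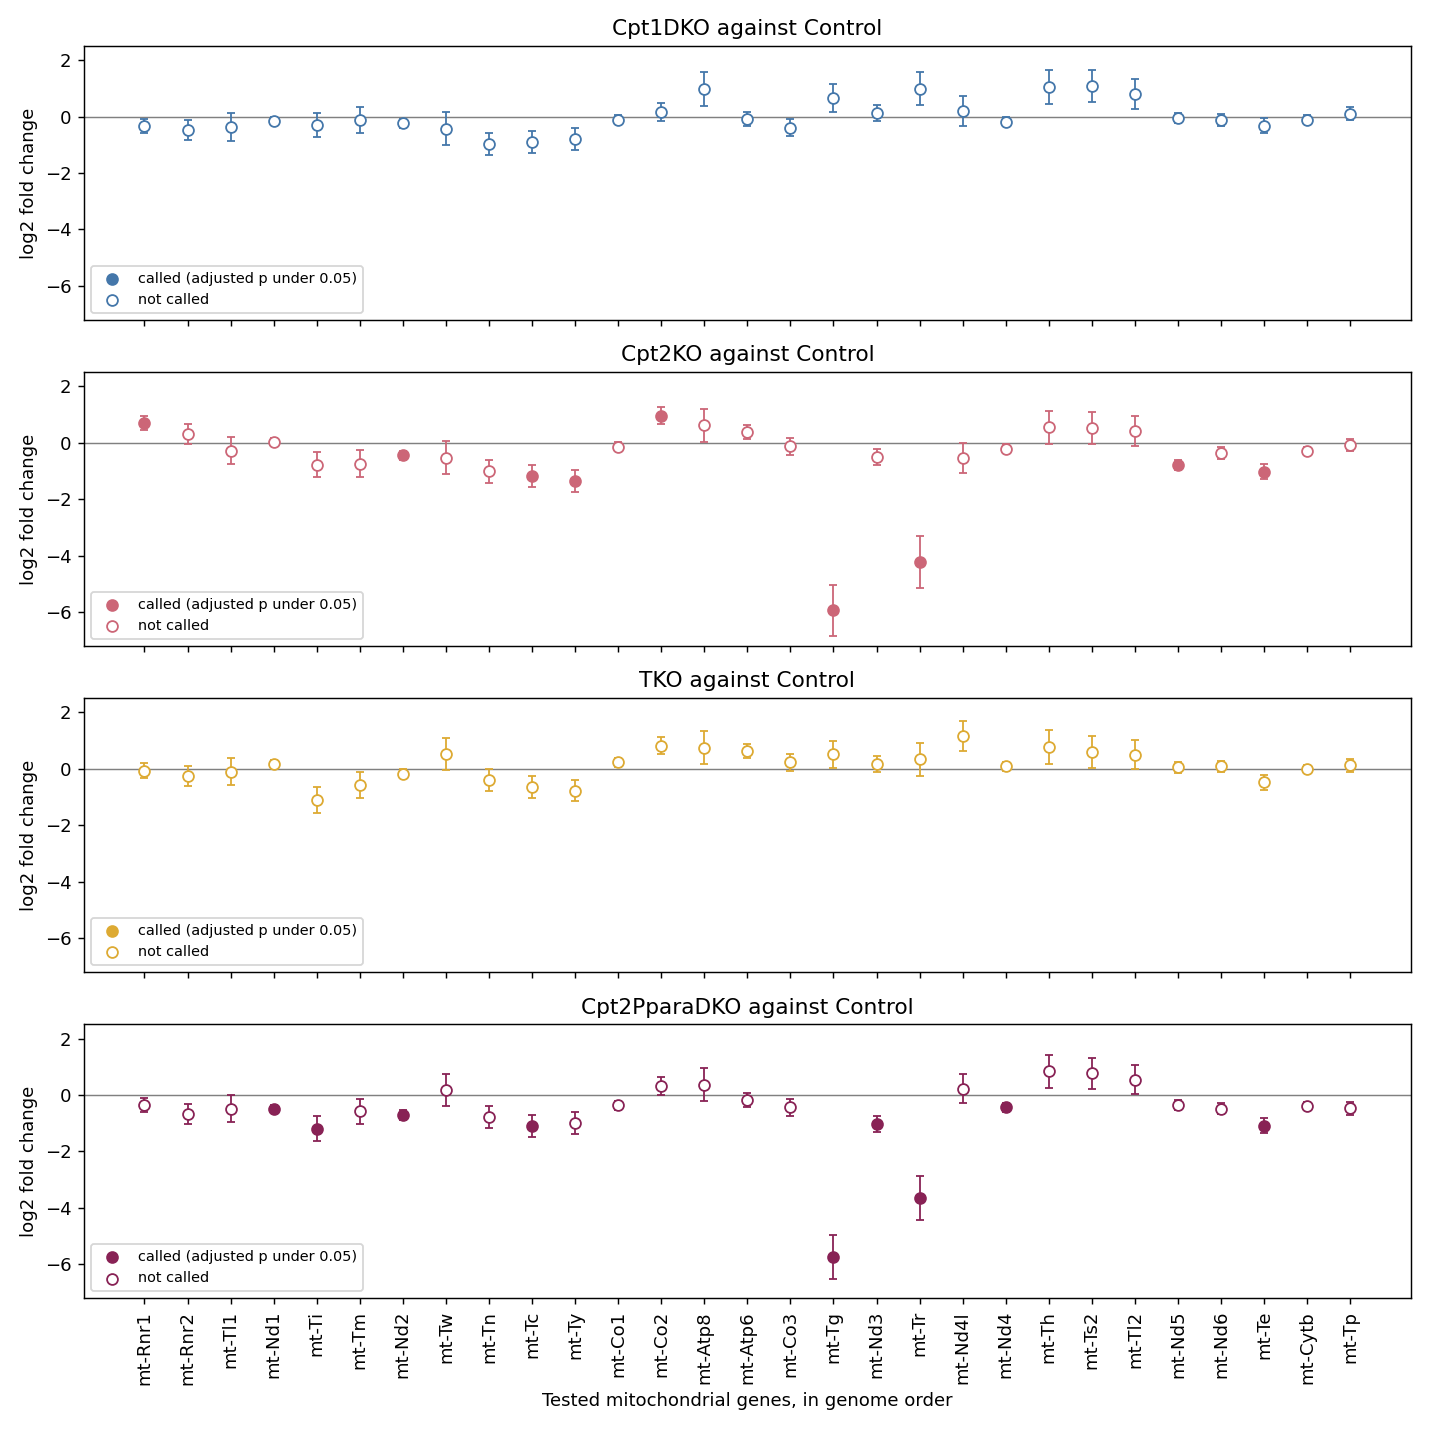
Log2 fold changes (edgeR, ± SE) of the 29 tested mitochondrial genes, in genome order, for each mutant group against Control; filled points are called. The 2 deep falls in Cpt2KO and Cpt2PparaDKO are mt-Tg and mt-Tr, at -5.93 and -4.22 in Cpt2KO and -5.74 and -3.64 in Cpt2PparaDKO.

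Of the 29 genes, mt-Tg and mt-Tr changed most, and they did so in the same groups. mt-Tg had 0, 1, 0 and 0 counts in Cpt2KO and 2, 0, 0 and 0 in Cpt2PparaDKO, against 39, 8, 22 and 14 in Control. Cpt1DKO had 34, 47, 11 and 31 counts and TKO had 20, 12, 70 and 40. Every library of Cpt1DKO and TKO thus held reads of mt-Tg, and the libraries of Cpt2KO and Cpt2PparaDKO held 3 in all. Per unit of scaled depth, the mt-Tg rate in Cpt2KO was 0.0112 of that in Control, with an exact 95% counting interval of 0.00028 to 0.0641. In Cpt2PparaDKO it was 0.0138 of Control, with an interval of 0.00165 to 0.0516. Such intervals cover counting error only. edgeR's quasi-likelihood test gave log2 fold changes of -5.93 ± 0.90 (SE, adjusted p = 3.6e-05) for Cpt2KO and -5.74 ± 0.79 (adjusted p = 1.9e-05) for Cpt2PparaDKO, sizes that depend on the prior count because the mutant groups lay near 0. In all comparisons of that fit, mt-Tg was tested because it passed the count filter with the reads of Cpt1DKO and TKO counted. Fitted with Control alone, either mutant group left it under the filter, so these p-values are no separate support for the counts.

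mt-Tr followed the same pattern at lower counts. It had 0, 0, 1 and 1 counts in Cpt2KO and 1, 0, 4 and 0 in Cpt2PparaDKO, against 24, 8, 5 and 6 in Control, and 17, 30, 6 and 28 in Cpt1DKO and 8, 8, 29 and 19 in TKO. The highest library of Cpt2KO and Cpt2PparaDKO, at 4, stayed under the lowest of the other 3 groups, at 5. The rate in Cpt2KO was 0.0432 of Control (exact 95% counting interval 0.00507 to 0.166) and that in Cpt2PparaDKO was 0.0668 of Control (0.0207 to 0.168). Both falls were called by edgeR, at adjusted p = 0.00142 in Cpt2KO and 0.00137 in Cpt2PparaDKO. As for mt-Tg, the count filter was passed with the reads of Cpt1DKO and TKO counted, and missed in fits of either group with Control alone.

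**Figure D5:**
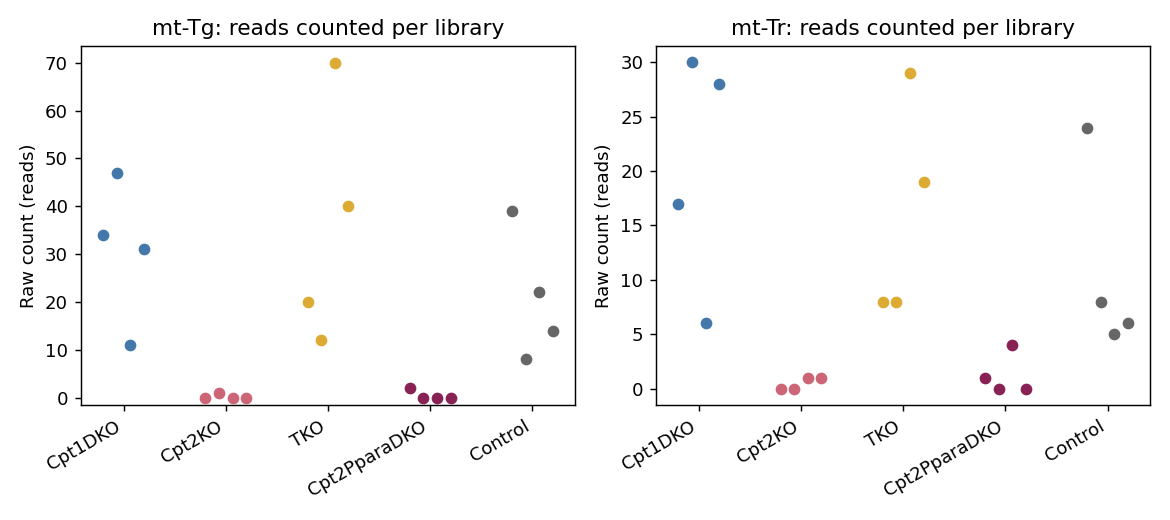
Raw counts of mt-Tg and mt-Tr in each library, by group; each point is 1 library. Cpt2KO libraries hold 0 or 1 read of either gene and Cpt2PparaDKO libraries 0 to 4, against 8 to 39 reads of mt-Tg and 5 to 24 of mt-Tr in Control.

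In TKO livers, which also lacked Cpt2, mt-Tg and mt-Tr counts overlapped Control. Between TKO and Cpt2KO, 8 of 15669 genes were called, which is 0.0511%, and mt-Tg was the only mitochondrial gene among them. By adjusted p it came after Cpt1a and 4931408D14Rik, both on chromosome 19. The mt-Tg rate in TKO was 132 times that in Cpt2KO (exact 95% counting interval 23.3 to 5250), and edgeR gave a log2 fold change of 6.43 ± 0.87 (adjusted p = 0.0013). For mt-Tr the rate ratio of TKO over Cpt2KO was 29.7 (interval 7.9 to 251) and all TKO libraries lay above all Cpt2KO libraries, at an adjusted p of 0.0928. The interaction, which sets the difference of TKO from Cpt1DKO against that of Cpt2KO from Control, called mt-Tg as 1 of 29 mitochondrial genes, where 2.70% of all tested genes were called. Its log2 value was 5.78 ± 1.07 (adjusted p = 0.00594).

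Both tRNA genes flank mt-Nd3 inside the span copied on chromosome 1, and the groups with few of their reads were those with the higher share on Gm28438. Between the matched stretches of mt-Co3 and mt-Nd3, the interval that holds mt-Tg, the distance was 69 bases on the mitochondrial genome and 69 on chromosome 1. Between those of mt-Nd3 and mt-Nd4l, the interval that holds mt-Tr, it was 73 bases on the mitochondrial genome and 74 on chromosome 1, 1 base more. Whether reads of these tRNAs were placed on chromosome 1 was not tested, since the deposited tables hold no reads. The labels give neither maternal line nor strain, and genotype and mitochondrial line cannot be told apart between these groups.

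Among complex I mRNAs, falls were called for mt-Nd2 and mt-Nd5 in Cpt2KO and for mt-Nd1, mt-Nd2, mt-Nd3 and mt-Nd4 in Cpt2PparaDKO. mt-Nd5, a membrane subunit of the proton pump, had 4090, 2170, 3670 and 3890 CPM in Cpt2KO, against 6870, 5840, 5400 and 5570 CPM in Control. The groups did not overlap, and its log2 fold change was -0.78 ± 0.18 (adjusted p = 0.00258). In Cpt2PparaDKO mt-Nd5 had 5140, 5460, 4390 and 3720 CPM, which overlapped Control, at -0.34 (adjusted p = 0.165).
mt-Nd2 fell in both groups, by 0.45 in Cpt2KO (adjusted p = 0.0455) and by 0.71 in Cpt2PparaDKO (adjusted p = 0.00315) on the log2 scale. It had 6380, 4600, 5260 and 7200 CPM in Cpt2KO and 5330, 5780, 5120 and 3370 CPM in Cpt2PparaDKO, against 8870, 7930, 7480 and 7800 CPM in Control. All libraries of either mutant group lay below all Control libraries, but in Cpt2KO the call held in 1 of 8 fits that left out a library, with log2 fold changes of -0.56 to -0.22 over all alternatives.

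mt-Nd1, mt-Nd3 and mt-Nd4 fell in Cpt2PparaDKO. mt-Nd1 had 4560, 5120, 5010 and 3350 CPM there, against 7070, 6010, 6090 and 6180 CPM in Control, a log2 fold change of -0.49 ± 0.15 (adjusted p = 0.0164). mt-Nd4 had 3950, 4450, 3740 and 2960 CPM, against 5090, 4570, 5170 and 5450 CPM in Control, at -0.43 ± 0.16 (adjusted p = 0.0457). In both genes Cpt2PparaDKO replicate 4 was the lowest of the 20 libraries, and without it the log2 fold changes were -0.35 (adjusted p = 0.0641) for mt-Nd1 and -0.30 (adjusted p = 0.159) for mt-Nd4. The call of mt-Nd1 was also lost without Control replicate 1 (-0.43, adjusted p = 0.0512), and that of mt-Nd4 held in 1 of 8 fits that left out a library. mt-Nd3 had 20.1, 21.9, 18.5 and 7.99 CPM in Cpt2PparaDKO, against 41.1, 29.2, 38.1 and 31.9 CPM in Control, at -1.03 ± 0.28 (adjusted p = 0.00866). With the counts of Gm28438 added to those of mt-Nd3, an alternative chosen after seeing the data, the value was -0.07 (adjusted p = 0.881). Scaled to library totals alone, mt-Nd1 stood at -0.02, mt-Nd2 at -0.24, mt-Nd3 at -0.57 and mt-Nd4 at 0.05 in Cpt2PparaDKO against Control, and none of these was called.

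Of the other mRNAs, mt-Co2 was the only one called in any comparison with Control. It had 212, 247, 246 and 533 CPM in Cpt2KO, against 182, 134, 151 and 171 CPM in Control, a log2 fold change of 0.96 ± 0.31 (adjusted p = 0.0224) with no overlap of the groups. Cpt2KO replicate 4 stood far above the rest, and without it the value was 0.56 (adjusted p = 0.125). Without Control replicate 2 it was 0.91 (adjusted p = 0.0571). With the counts of Gm28661 added it was 0.62 (adjusted p = 0.0738). mt-Co1 gave -0.14 in Cpt2KO and -0.36 in Cpt2PparaDKO. mt-Cytb gave -0.30 in Cpt2KO and -0.38 in Cpt2PparaDKO, with all libraries of both groups below Control, and none of these 4 values passed the test. mt-Atp6 gave 0.62 in TKO, where all 4 libraries (302, 299, 467 and 258 CPM) lay above Control (253, 196, 204 and 210 CPM), at an adjusted p of 0.0683. mt-Atp8 had 3 to 29 counts per library and was called in no comparison.

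The 2 rRNAs of the mitochondrial ribosome are cut from the start of the heavy-strand precursor. They took 2.14 ± 0.906% of mitochondrial counts in Cpt2KO, against 1.29 ± 0.557% in Control. mt-Rnr1, of the small subunit, had 509, 779, 410 and 511 CPM in Cpt2KO, against 269, 210, 501 and 389 CPM in Control, and rose by 0.69 ± 0.25 (adjusted p = 0.0358). The groups overlapped, and the value was 0.48 (adjusted p = 0.164) without Cpt2KO replicate 2, 0.59 (adjusted p = 0.105) without Control replicate 1 and 0.54 (adjusted p = 0.109) without Control replicate 2.
mt-Rnr1 in Cpt2KO was also set against other mutant groups. Cpt1DKO libraries had 200, 330, 288 and 253 CPM of mt-Rnr1, all below Cpt2KO, and Cpt2KO over Cpt1DKO gave 1.04 ± 0.25 (adjusted p = 0.00881). Cpt2PparaDKO libraries had 279, 290, 337 and 172 CPM, also all below Cpt2KO, and Cpt2PparaDKO over Cpt2KO gave -1.03 ± 0.25 (adjusted p = 0.00438). Both calls held in all 18 alternatives. mt-Rnr2, of the large subunit, ran from 231 to 911 CPM in Cpt2KO and from 232 to 657 CPM in Control and was called in no comparison.

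Tested tRNAs other than mt-Tg and mt-Tr fell by about 1 on the log2 scale where they were called. mt-Te, for glutamate, lies on the light strand beside mt-Nd6. It had 29.2, 16.4, 20.9 and 25 CPM in Cpt2KO and 29.5, 30.8, 18.9 and 8.5 CPM in Cpt2PparaDKO, against 44.5, 47.2, 49 and 46.5 CPM in Control. Neither mutant group overlapped Control. TKO libraries, at 27 to 36.5 CPM, also lay below all Control libraries, though mt-Te was not called there. The log2 fold changes were -1.03 ± 0.27 (adjusted p = 0.0061) in Cpt2KO and -1.09 ± 0.27 (adjusted p = 0.00436) in Cpt2PparaDKO, and both calls held in all 18 alternatives. Its neighbour mt-Nd6 gave -0.37 and -0.48 in the same groups and was not called in either.
mt-Tc for cysteine and mt-Ty for tyrosine lie next to each other on the light strand, near its origin of replication. mt-Tc on the log2 scale fell by 1.18 in Cpt2KO (adjusted p = 0.0243) and by 1.09 in Cpt2PparaDKO (adjusted p = 0.035), and mt-Ty fell by 1.34 in Cpt2KO (adjusted p = 0.0117). mt-Ty had 8.44, 2.13, 3.26 and 6.17 CPM in Cpt2KO, against 11.3, 7.9, 17.3 and 13.8 CPM in Control, and 1 library of each group crossed the other. Control replicate 3 was the highest of the 20 libraries for mt-Tc, at 49.4 CPM, and without it mt-Tc gave -0.81 in Cpt2KO (adjusted p = 0.116) and -0.72 in Cpt2PparaDKO (adjusted p = 0.161). The mt-Tc call held in 4 of 8 fits that left out a library for Cpt2KO and in 3 of 8 for Cpt2PparaDKO. mt-Ti for isoleucine, on the heavy strand, had a log2 fold change of -1.2 in Cpt2PparaDKO (adjusted p = 0.0408), with 3 to 21 counts per library, and this call held in 1 of 8 fits that left out a library. TKO libraries of mt-Ti, at 0.182 to 0.539 CPM, lay below those of Control too, at 0.743 to 1.16 CPM, and were not called.
By strand, 3 of the 6 tested light-strand genes and 4 of the 23 tested heavy-strand genes were lower in Cpt2KO, with 2 of the 23 higher. In Cpt2PparaDKO 2 of 6 and 7 of 23 were lower. Of all tested genes 33.4% were called in Cpt2KO and 32.5% in Cpt2PparaDKO, and a difference between the strands was not tested. The remaining tested tRNAs were mt-Tl1, mt-Tm, mt-Tw, mt-Tn, mt-Th, mt-Ts2, mt-Tl2 and mt-Tp, and none was called in any comparison. mt-Tp for proline had the most reads of any tRNA gene, 1274 to 4573 per library, and averaged 109 ± 17.1 CPM in Cpt2KO and 83.8 ± 25.9 CPM in Cpt2PparaDKO, against 116 ± 30.2 CPM in Control.

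Between the mutant groups few mitochondrial genes differed. In Cpt2KO against Cpt1DKO 4 of 29 were called, where 14.1% of all tested genes were. mt-Rnr1 was higher, and mt-Nd5 (log2 fold change -0.72, adjusted p = 0.0126), mt-Tg (-6.58, adjusted p = 7.2e-05) and mt-Tr (-5.21, adjusted p = 6.0e-04) were lower, each with no overlap of the groups. In Cpt2PparaDKO against Cpt2KO 2 of 29 were called, where 24.4% of all tested genes were. These were mt-Rnr1 and mt-Nd1, the second at -0.51 ± 0.15 (adjusted p = 0.017), or -0.41 (adjusted p = 0.0638) without Cpt2KO replicate 4. mt-Tg and mt-Tr gave rate ratios of 1.24 (exact 95% counting interval 0.0644 to 73) and 1.55 (0.253 to 16.2) in that comparison, too few reads to show a difference. In TKO against Cpt1DKO 0 of 29 were called, where 4.65% of all tested genes were, with 5 at an unadjusted p under 0.05, a share not counted over all genes. DESeq2 called 0 of the 29 there and 1266 of all 15669 genes.

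The nuclear genes that serve the mitochondrial genome were grouped by role. Of 10 listed transcription genes, 0 were called against Control in Cpt1DKO, where 5.55% of all tested genes were. Cpt2KO and TKO also had 0, beside 33.4% and 27.4% of all tested genes. In Cpt2PparaDKO, beside 32.5% of all tested genes, 2 of the 10 were called, both lower. These were Tfam, which packages and transcribes mitochondrial DNA, at 38.8 ± 2.76 CPM in Cpt2PparaDKO against 55.5 ± 2.77 CPM in Control (adjusted p = 2.8e-04), and Polrmt, the mitochondrial RNA polymerase, at 25.5 ± 1.49 against 32.1 ± 2.41 CPM (adjusted p = 0.0259). Scaled to library totals alone the 10 genes had a median log2 fold change of 0.28 in Cpt2PparaDKO, with 2 higher and 0 lower. By the same scaling 3 were higher in Cpt2KO and 4 in TKO, so these directions depend on the scaling. It called 5811 of all 15669 genes in Cpt2KO, 5400 in TKO and 8449 in Cpt2PparaDKO. Tfb2m and Tefm, which start and extend transcription, and Twnk, the replicative helicase, were called in no comparison with Control, and neither were Slirp, a stabiliser of mRNAs, or the coactivator Ppargc1a. Lrpprc, the partner of Slirp, had 120 ± 12 CPM in TKO, against 158 ± 24.2 CPM in Control (log2 fold change -0.39, adjusted p = 0.0322), a call that held in 9 of 18 alternatives.

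The deepest fall among these nuclear genes was that of Hsd17b10, an enzyme of isoleucine breakdown that is also a subunit of the RNase P which cuts the 5′ ends of mitochondrial tRNAs. It had 75.1 ± 20.3 CPM in Cpt2PparaDKO, against 467 ± 54.3 CPM in Control, a log2 fold change of -2.64 ± 0.20 (adjusted p = 1.0e-08). In Cpt2KO it had 430 ± 58.2 CPM, and Cpt2PparaDKO over Cpt2KO gave -2.52 ± 0.20 (adjusted p = 8.2e-09). Its partners in the complex, Trmt10c and Prorp, gave -0.25 and -0.03 in Cpt2PparaDKO against Control and were not called.
Polg2, the accessory subunit of the mitochondrial DNA polymerase, was lower in 3 groups, at 6.5 ± 0.422 CPM in Cpt2KO, 6.61 ± 0.662 CPM in TKO and 6.03 ± 1.68 CPM in Cpt2PparaDKO, against 13 ± 1.46 CPM in Control. Taco1, a translational activator of mt-Co1, fell by 0.77 in Cpt2KO (adjusted p = 6.3e-04), by 0.55 in TKO (adjusted p = 0.0102) and by 0.82 in Cpt2PparaDKO (adjusted p = 3.6e-04). Pus1, a pseudouridine synthase of tRNAs, rose by 0.89 in Cpt2KO (adjusted p = 0.00137), 0.67 in TKO (adjusted p = 0.0142) and 0.67 in Cpt2PparaDKO (adjusted p = 0.0116). Of 35 listed genes of RNA processing and stability, 7 were higher and 6 lower in Cpt2KO, 6 and 6 in TKO, 4 and 7 in Cpt2PparaDKO, and 1 and 1 in Cpt1DKO. Of all tested genes 33.4% were called in Cpt2KO, 27.4% in TKO, 32.5% in Cpt2PparaDKO and 5.55% in Cpt1DKO, and the list's counts lay near these shares. With library totals as the only scaling, 11 were higher and 3 lower in Cpt2KO, 13 and 1 in TKO, and 19 and 2 in Cpt2PparaDKO. By that scaling 5811, 5400 and 8449 of all 15669 genes were called in these groups. Of 16 genes of mitochondrial DNA maintenance, 2 were higher and 1 lower in Cpt2KO, 0 and 1 in TKO, 3 and 2 in Cpt2PparaDKO, and 0 and 0 in Cpt1DKO. Of 14 translation factors, 0 were called in Cpt1DKO, 3 were lower in Cpt2KO, 4 in TKO and 4 in Cpt2PparaDKO. Of 9 biogenesis regulators, 0 were called in Cpt1DKO, 2 were higher in Cpt2KO, and 1 was higher and 1 lower in both TKO and Cpt2PparaDKO. By library totals alone, 6 regulators were higher in Cpt2KO, 4 in TKO and 6 in Cpt2PparaDKO. Of the maintenance genes 3, 4 and 9 were higher in the same groups, beside the counts over all genes given above for that scaling. In Cpt1DKO the higher one was Cdk5rap1, which modifies mitochondrial tRNAs (0.64, adjusted p = 0.0476), and the lower one was Nsun4, a methyltransferase of mitochondrial rRNA (-0.59, adjusted p = 0.0354), which was called lower in the other mutant groups too. These 2 calls in Cpt1DKO held in 9 and 7 of 18 alternatives, and that of Nsun4 in Cpt2KO held in 9 of 18.

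Most of the other named nuclear genes were called in more than 1 mutant group against Control, with log2 values as follows. Cdk5rap1 rose in Cpt2KO (0.73, adjusted p = 0.00416) and TKO (0.50, adjusted p = 0.0477), the second in 10 of 18 alternatives. Rexo2, an exonuclease that clears short RNAs, rose in Cpt2KO (0.72, adjusted p = 0.00118), TKO (0.48, adjusted p = 0.0258) and Cpt2PparaDKO (0.42, adjusted p = 0.0425). Nrf1, a transcription factor for nuclear genes of mitochondria, also rose in Cpt2KO (0.53, adjusted p = 0.00732), TKO (0.65, adjusted p = 0.00202) and Cpt2PparaDKO (0.43, adjusted p = 0.0276). Gtpbp3, which modifies mitochondrial tRNAs, rose in the same groups, by 0.64 in Cpt2KO (adjusted p = 7.7e-04), 0.36 in TKO (adjusted p = 0.0489) and 0.51 in Cpt2PparaDKO (adjusted p = 0.00527). Tbrg4 rose in Cpt2KO (0.66, adjusted p = 0.00238) and TKO (0.55, adjusted p = 0.0113). Mpv17, whose loss depletes mitochondrial DNA, rose in Cpt2KO (0.43, adjusted p = 0.0456) and Cpt2PparaDKO (0.63, adjusted p = 0.00491). Pprc1, a PGC-1-related coactivator, was called in Cpt2KO (0.88, adjusted p = 0.0232), and Slc25a33, a pyrimidine nucleotide carrier, in Cpt2PparaDKO (0.68, adjusted p = 0.00326).
Falls were likewise shared. Mto1, the partner of Gtpbp3, fell by 0.52 in Cpt2KO (adjusted p = 0.00303), 0.60 in TKO (adjusted p = 0.00118) and 0.60 in Cpt2PparaDKO (adjusted p = 8.9e-04). Mrm2, a methyltransferase of mitochondrial rRNA, fell by 0.61 in Cpt2KO (adjusted p = 0.0456, held in 5 of 18 alternatives), 0.81 in TKO (adjusted p = 0.0115) and 0.72 in Cpt2PparaDKO (adjusted p = 0.0192). The coactivator Ppargc1b fell by 1.11 in TKO (adjusted p = 0.0204) and by 0.97 in Cpt2PparaDKO (adjusted p = 0.0334, held in 8 of 18 alternatives). Mtrfr, a release factor homologue, fell by 0.61 in Cpt2KO (adjusted p = 0.0203). Being called in one group and not in another is no test of a difference between them.
Against Cpt2KO, Cpt2PparaDKO had more Slc25a33 (0.69, adjusted p = 0.00403) and Pnpt1, a mitochondrial RNA-degrading enzyme (0.60, adjusted p = 7.5e-04). It had less Esrra (-0.51, adjusted p = 0.0417), Cdk5rap1 (-0.51, adjusted p = 0.0444) and Trit1, a tRNA-modifying enzyme (-0.49, adjusted p = 0.00366). The calls of Esrra and Cdk5rap1 held in 9 and 7 of 18 alternatives.

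Nuclear-encoded subunits of the same complexes fell broadly in Cpt2PparaDKO, where 4 of 13 mitochondrial mRNAs did. There 32 of 36 nuclear subunits of complex I were lower (median log2 fold change -0.59), all 9 of complex III (-0.54), 9 of the 12 tested of complex IV (-0.56) and 16 of 17 of the ATP synthase (-0.61), with 0 higher in each, where 32.5% of all tested genes were called in either direction. The median of the 13 mitochondrial mRNAs was -0.38. All 4 subunits of complex II, which has no mitochondrially encoded part, were lower too (-0.61). The deepest falls were those of Ndufa1 in complex I (-0.86), Sdhd in complex II (-0.79), Uqcrb in complex III (-0.81), Cox6c in complex IV (-0.74) and Atp5k in the ATP synthase (-1.11). Scaled to library totals alone, which moved the median of all tested genes by 0.481, the medians were -0.12 for complex I, -0.13 for complex II, -0.06 for complex III, -0.09 for complex IV and -0.13 for the ATP synthase, and the median of the 29 mitochondrial genes was 0.00. By that scaling 4 were lower and 1 higher in complex I, and 3 lower and 1 higher in the ATP synthase. Of all 15669 genes 8449 were then called.
In Cpt2KO, where 33.4% of all tested genes were called, 2 were higher and 2 lower of 36 in complex I, 0 were called of 12 in complex IV and 2 were higher of 17 in the ATP synthase. Scaled to library totals alone, 9 were higher and 1 lower in complex I, 8 of 12 higher in complex IV and 7 of 17 higher in the ATP synthase. These counts thus depend on the scaling, by which 5811 of all 15669 genes were called. In TKO, where 27.4% of all tested genes were called, 10 of 36 complex I subunits were lower (median -0.24), and 0 of 13 mitochondrial mRNAs were. By library totals alone, 1 was higher and 1 lower in complex I there, where 5400 of all 15669 genes were called. In Cpt1DKO 0 were called in each of these lists. The hepatocyte markers were lowest in Cpt2PparaDKO too, and their part in these falls was not tested.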

How the data were processed

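Raw counts per gene and FPKM values were deposited by the authors. Per the submitters' processing notes, HISAT2 and the build GRCm39 were used. Not given in the sources used here are the counting tool, its strand setting, its treatment of reads that match several places, and the library type. The authors also deposited tables of log2 fold changes and adjusted p-values, used only to set calls side by side.

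The members, gene lists and rule for named genes were chosen with earlier results of these data known. Named nuclear genes were the 4 largest called rises and falls over 5 lists of genes of mitochondrial DNA maintenance, transcription, RNA processing, translation and biogenesis, with a mean of at least 5 CPM, plus 8 fixed genes.

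Of 31344 genes with a count, 15669 passed edgeR's filterByExpr (minimum count 10). One edgeR 4.0.16 quasi-likelihood model (TMM, robust, group only, biological coefficient of variation 0.233) covered all 20 libraries. Tests were two-sided and Benjamini-Hochberg adjusted over all tested genes. The fit was tested on simulated data. Libraries within a group differed by more than sampling noise (chi-square per degree of freedom 12.7 to 172 in 30 pairs). Copies on chromosome 1 were found with blastn between transcripts (99% identity over at least 250 bases). DESeq2 1.42.0, other scalings, a block, left-out libraries and added copies were alternatives.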

Additional observations from a re-analysis of the deposited data

Results flagged for a closer look

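Of 150 groups of 4 values, 9 had a library far from the other 3, where chance gives about 1 in 20. In Cpt1DKO, mt-Atp6 stood at 297 CPM in replicate 4, against 163 to 181 CPM in the other libraries. In Cpt2KO, mt-Co2 stood at 533 CPM in replicate 4 (others 212 to 247 CPM), and mt-Tg at 0.0533 CPM in replicate 2, which is 1 read (others 0). In TKO, mt-Tw stood at 0.886 CPM in replicate 3 (others 2.61 to 2.91 CPM) and mt-Ty at 11.2 CPM in replicate 4 (others 5.58 to 6.47 CPM). In Cpt2PparaDKO, mt-Co2 stood at 97.8 CPM in replicate 4 (others 219 to 244 CPM), mt-Tg at 0.0471 CPM in replicate 1, which is 2 reads (others 0), and mt-Tr at 0.187 CPM in replicate 3 (others 0 to 0.0235 CPM). In Control, mt-Nd1 stood at 7070 CPM in replicate 1 (others 6010 to 6180 CPM).

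For mt-Tg, the difference of TKO from Cpt1DKO and that of Cpt2KO from Control differed by 5.78 on the log2 scale (interaction, adjusted p = 0.00594 by edgeR's quasi-likelihood test). Genotype and mitochondrial line cannot be told apart in it. It was called in all 26 alternatives, with values of 5.27 to 7.45 and adjusted p-values of 2.5e-04 to 0.0162.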

How the results depend on the processing

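Every called fold of mt-Tg and mt-Tr held under every alternative that gave them a value, among them other scalings, DESeq2 and each left-out library. They had no value where they missed the count filter. In Cpt2KO against Control, the calls of mt-Nd5, mt-Te and mt-Ty held in all 18 alternatives. Most other member calls rested on the scaling or on 1 library. Scaled to library totals only, 4 mitochondrial genes were called in TKO against Control (all higher), 4 in Cpt2PparaDKO against Control (1 higher, 3 lower) and 1 in TKO against Cpt1DKO, where 5400, 8449 and 1106 of all 15669 genes were. This scaling moved the median of all genes by 0.1 (Cpt1DKO), 0.199 (Cpt2KO), 0.238 (TKO) and 0.481 (Cpt2PparaDKO), and the members' medians became 0.00, -0.09, 0.38 and 0.00. Scaled to the mitochondrial total, 1 was called in TKO against Control, 5 in Cpt2PparaDKO against Control and 3 in TKO against Cpt2KO, where 3177, 7016 and 629 of all genes were. mt-Nd4 in Cpt2PparaDKO reversed to 0.05 with library totals and 0.00 with the mitochondrial total, neither called.

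With no filter on low counts, 5 were called in Cpt2KO against Control and 3 in TKO against Cpt2KO, where 4663 and 11 of 31344 genes were. DESeq2's Wald test called 2 in TKO against Control, 4 in Cpt2PparaDKO against Cpt2KO, 3 in TKO against Cpt2KO and 2 in the interaction. Of all 15669 genes it called 4673, 4303, 54 and 941 in the same order. Fits on only the groups compared called 1 in Cpt1DKO, 4 in Cpt2KO and 3 in TKO against Control, 1 in Cpt2PparaDKO against Cpt2KO and 2 in the interaction. Over all genes these fits called 1442 of 14147, 4574 of 14261, 5033 of 14515, 2495 of 14780 and 600 of 15061. mt-Tg and mt-Tr missed the count filter in the fits of Cpt2KO or Cpt2PparaDKO with Control alone, and mt-Tr also in that of Cpt2KO with Cpt1DKO. In the fits of all groups they passed it with the reads of Cpt1DKO and TKO counted. Without the 2 libraries with a female level of Xist, Cpt2KO replicate 3 and Cpt2PparaDKO replicate 4, 4 were called in TKO against Control, 5 in Cpt2PparaDKO against Control, 7 in Cpt2KO against Cpt1DKO and 2 in the interaction. Of all 15810 genes tested there, 4980, 4421, 3227 and 973 were called. The cause of these shifts was not tested.

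Leaving out each library in turn gave 0 to 1 calls in TKO against Control (1 without TKO replicate 2 or 4), 5 to 10 in Cpt2PparaDKO against Control (5 without Cpt2PparaDKO replicate 4), 1 to 4 in Cpt2PparaDKO against Cpt2KO (1 without Cpt2KO replicate 4, 4 without Cpt2KO replicate 3) and 1 to 2 in the interaction (2 without Cpt2KO replicate 1). Over all genes the fits named called 3728 and 3764 in TKO and 4208 in Cpt2PparaDKO against Control. They called 3484 and 3758 in Cpt2PparaDKO against Cpt2KO and 585 in the interaction.

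Groups share replicate numbers, but these did not pair the libraries: over 40 same-numbered pairs the correlation of deviations ran from -0.201 to 0.233, with 4 over 0.1. With replicate number as a block, 8 mitochondrial genes were called in Cpt2KO and 7 in Cpt2PparaDKO against Control, where 5050 and 4921 of all 15669 genes were. No other count of mitochondrial genes changed. Depth limits the 8 untested tRNAs and also mt-Atp8, mt-Ti, mt-Tm, mt-Tg and mt-Tr. The median count over the 20 libraries was 11.5 for mt-Tg and 6 for mt-Tr.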

Other observations

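In the authors' deposited table of Cpt2KO against Control, 10 of the 29 tested mitochondrial genes had an adjusted p under 0.05, and 9 of them were those called here. In their table of Cpt2PparaDKO against Control 11 did, of which 9 were those called here. In their tables of Cpt1DKO and TKO against Control 2 and 4 did, where the edgeR fit called 0. The share of all genes under that threshold in the authors' tables was not counted, so these counts have no background beside them. The authors' deposited table gives mt-Tg a log2 fold change of -6.15 in both Cpt2KO and Cpt2PparaDKO against Control.

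The copies on chromosome 1 gave calls of their own. Gm29216, the copy of the end of mt-Co1, rose by 0.74 in Cpt2KO against Control (adjusted p = 0.0192, edgeR's quasi-likelihood test) while mt-Co1 gave -0.14. Gm10222, the copy of mt-Nd4l, fell by 0.65 (adjusted p = 0.0213). Gm28438 gave 1.11 in Cpt2KO and 1.11 in Cpt2PparaDKO against Control, at adjusted p-values of 0.0541 and 0.0546, while mt-Nd3 gave -0.52 and -1.03.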
